A study of Mus musculus with 16 samples.

Results

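The genes described here are the potassium channel genes of the mouse lumbar spinal cord: every symbol in the deposited count table made of Kcn and family letters, mostly with a number, without Kcnj10 and Kcnj14. The rule used symbols and no measured value. It found 93 of 23284 symbols. They were 40 voltage-gated subunits, 13 inward rectifiers, 14 two-pore subunits, 17 auxiliary subunits and regulators, and Kcnq1ot1, the antisense RNA of Kcnq1. The other 8 are called calcium-activated or sodium-activated here, with Kcnu1 of the Slo3 clade counted among them. RNA was sequenced from 16 lumbar cords, each from a mouse 150 days of age, with 4 mice in each of 4 groups. The groups were cKO_SOD1 (Atg7 cKO with SOD1G93A), cWT_SOD1 (Atg7 cWT with SOD1G93A), cKO (Atg7 cKO without the transgene) and cWT (Atg7 cWT without it). Atg7 encodes an enzyme that autophagosome formation needs, cKO is read here as conditional knockout and cWT as its wild-type counterpart, and SOD1G93A is a mutant human SOD1 used to model amyotrophic lateral sclerosis. The title of the series places the loss of autophagy in motor neurons, and neither the Cre driver nor the promoter of the transgene is given in the sources used here. All groups share the tissue and the age, and each held 2 female and 2 male mice by their Xist and Y-linked counts.

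Potassium channels let potassium leave the cell and so set the resting potential, end the action potential and space the spikes of a train. Voltage-gated channels are tetramers that open on depolarisation, and several families in them (Kcng, Kcns, Kcnv, Kcnf) form no channel of their own but change the gating of Kcnb subunits. Inward rectifiers and two-pore channels hold the membrane near rest in neurons and glia, calcium-activated channels shape the afterhyperpolarisation that paces motor neuron firing, and auxiliary subunits bind pore subunits and alter their traffic or inactivation.

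Libraries held 14989026 to 20892530 counted reads. Of the 93 genes, 78 passed the filter on low counts and were tested, as were 15426 symbols in all. The other 15 had 3 to 107 counts over the 16 libraries together: Kcna7, Kcna10, Kcnv2, Kcnj1, Kcnj4, Kcnj13, Kcnj15, Kcnk7, Kcnk15, Kcnk16, Kcnk18, Kcne1, Kcne2, Kcne3 and Kcnmb3. Atg7, the targeted gene, had 29.4, 20.4, 29.3 and 29.6 CPM (reads scaled to a common library size) in cKO_SOD1 cords and 30.3, 23.1, 22.1 and 20.8 CPM in cWT_SOD1 cords. It had 28.3, 28.8, 28.4 and 26.4 CPM in cKO cords and 35.1, 29.7, 29.9 and 31.0 CPM in cWT cords, where the groups did not overlap but the test was not passed (log2 fold change -0.17 ± 0.12 (SE), adjusted p = 0.9995). In cWT_SOD1 against cWT Atg7 passed the test as lower (log2 fold change -0.38). It did not pass in cKO_SOD1 against cKO (-0.04) or in cKO_SOD1 against cWT_SOD1 (0.17). Summed levels of cell type markers moved with the groups. The 15 pan-neuronal markers in the table summed to 9676 to 10685 CPM in cKO_SOD1 cords, 4865 to 7234 CPM in cWT_SOD1 cords, 13660.2 to 14358 CPM in cKO cords and 14626 to 15460.0 CPM in cWT cords. The 17 microglia markers summed to 1089.7 to 1163 CPM in cKO_SOD1 cords, 3187 to 5608 CPM in cWT_SOD1 cords, 476 to 647 CPM in cKO cords and 496 to 563 CPM in cWT cords. No marker of either list was at 0 in all libraries, and their part in the results below was not tested. In RNA of a whole tissue, fewer cells of a type and less RNA per cell cannot be told apart.

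In cWT cords the most abundant of these genes were beta subunits and pore subunits of the Kv1 and Kv3 families. On the FPKM scale, which corrects for transcript length, Kcnab2 led at 202 ± 5.44 FPKM (SD, n = 4 here and below), a cytoplasmic beta subunit that binds Kcna channels. Kcna1, a low-threshold axonal channel, was at 101 ± 6.38 FPKM. The libraries of both genes were separated from each other and from those of the genes that follow here. Kcnab1 at 75.1 ± 3.76 FPKM, Kcnc1 at 75.0 ± 3.27 FPKM and Kcna2 at 74.5 ± 4.02 FPKM overlapped. Kcnk1, the most abundant two-pore gene, was at 59.1 ± 4.39 FPKM. Over all 16 libraries 30 of the 93 genes averaged at least 10 FPKM and 64 at least 1 FPKM, and the 8 highest held 50.9% of the summed mean FPKM. Among inward rectifiers the highest mean levels over all libraries were those of Kcnj3, Kcnj11 and Kcnj16. Their cWT levels were 26.8 ± 0.712, 13.9 ± 0.398 and 30.2 ± 2.30 FPKM. Among calcium-activated and sodium-activated genes the highest were Kcnt1, Kcnma1 and Kcnn2, with cWT levels of 27.4 ± 2.42, 11.97 ± 0.330 and 15.9 ± 4.26 FPKM.

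**Figure D1:**
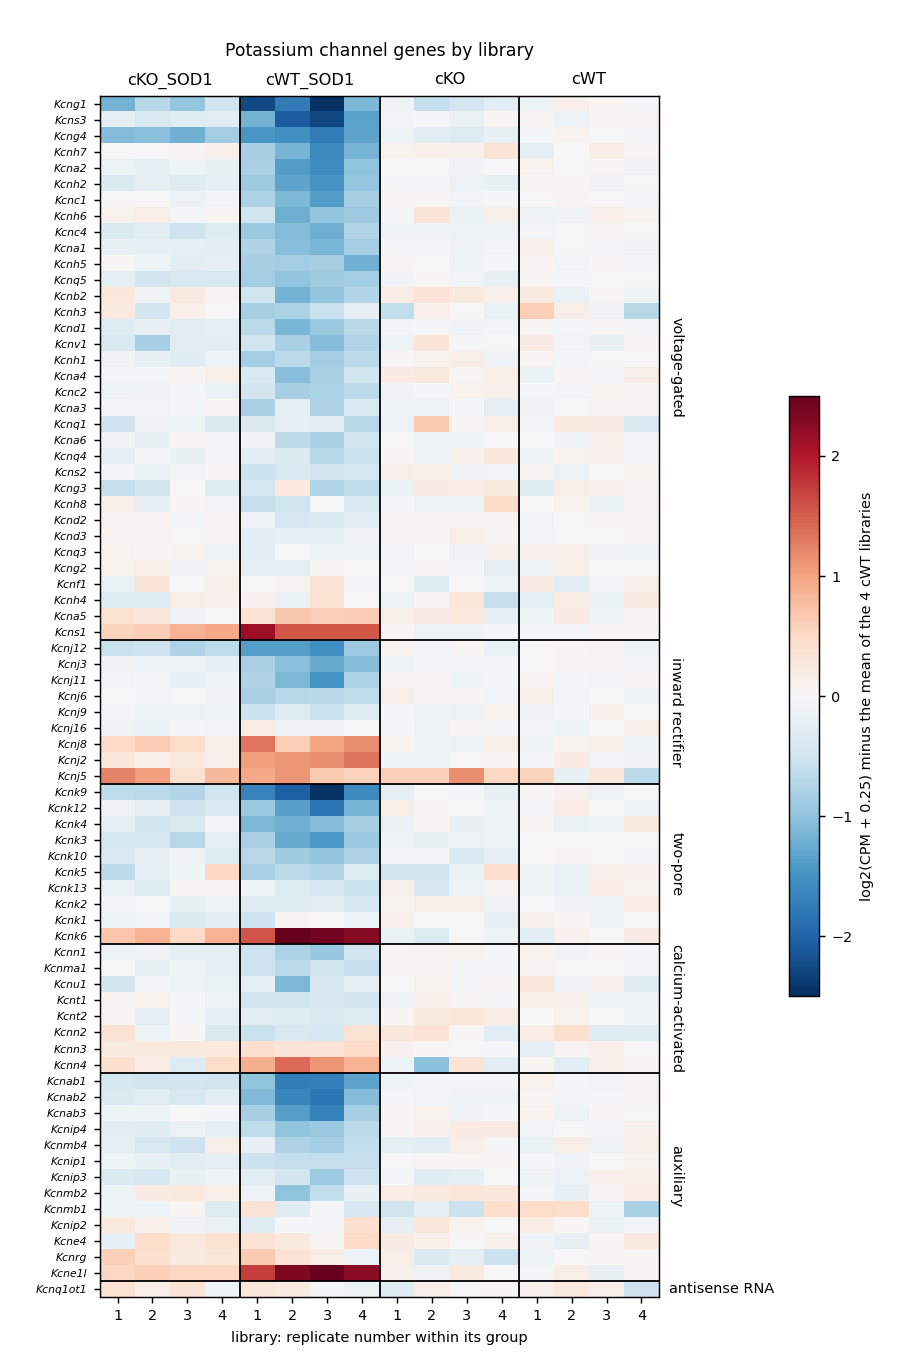
Colour gives log2(CPM + 0.25) minus the mean of the 4 cWT libraries for 75 of the 78 tested potassium channel genes (rows, by subfamily and then by fold change) in each of the 16 libraries (columns, by group). Most rows are blue in the 4 cWT_SOD1 libraries and pale in the cKO_SOD1 and cKO libraries, and a few rows, Kcns1, Kcnk6 and Kcne1l among them, are red in cWT_SOD1.

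In Atg7 cWT mice, SOD1G93A went with lower RNA of most potassium channel genes. Of the 78 tested genes 54 fell and 9 rose in cWT_SOD1 against cWT, while 15 did not pass the test (edgeR quasi-likelihood F-test, adjusted p under 0.05). That is 80.8% of them, beside 66.3% of all 15426 genes tested. Over all genes the calls were split evenly, with 33.1% lower and 33.2% higher. The median log2 fold change was -0.58 over the 78 genes and 0.01 over all genes tested. The cWT_SOD1 and cWT libraries did not overlap for 59 of the 78 genes, and for 56.6% of all genes tested. Summed FPKM of all 93 genes was 871 ± 96.5 in cWT_SOD1 cords and 1487 ± 26.6 in cWT cords, a level of 58.6%. The pan-neuronal markers stood at 39.3% of their cWT sum, with 14 of 15 lower. The spinal interneuron markers stood at 52.1%, and the motor neuron markers at 52.3%, with 14 of 16 lower.

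The mean summed level of each subfamily was lower in cWT_SOD1 than in cWT cords, with some overlap between libraries for the calcium-activated and sodium-activated genes alone. Voltage-gated genes summed to 368 ± 62.1 FPKM in cWT_SOD1 cords and 722 ± 25.5 FPKM in cWT cords, which is 51.0%. Auxiliary genes stood at 59.8% and two-pore genes at 68.6% of their cWT sum. Calcium-activated and sodium-activated genes stood at 79.0% and inward rectifiers at 79.2%. By gene, 28 of 37 tested voltage-gated genes fell and 2 rose (median log2 fold change -0.76). Of 10 two-pore genes 8 fell and 1 rose (median -0.79), and of 13 auxiliary genes 8 fell and 1 rose (median -0.53). Of 9 inward rectifiers 5 fell and 3 rose (median -0.44), and of 8 calcium-activated and sodium-activated genes 5 fell and 2 rose (median -0.40). Kcnq1ot1 did not pass the test (log2 fold change 0.07 ± 0.15 (SE), adjusted p = 0.702). A difference between subfamilies was not tested.

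**Figure D2:**
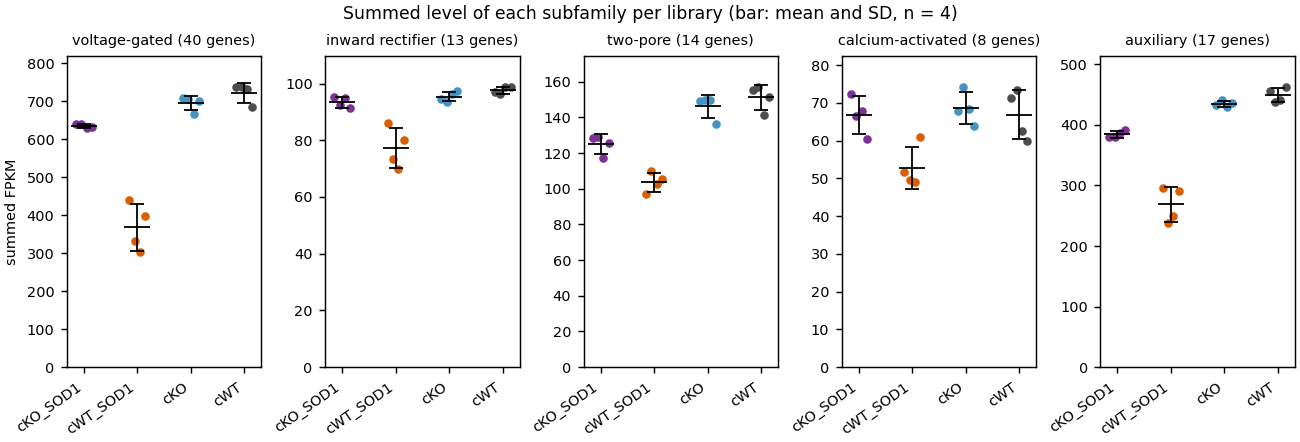
Each panel gives the summed FPKM of 1 subfamily in each library (points) with the mean and SD of the group (bar and line), on axes that start at 0. In the voltage-gated panel the 4 cWT_SOD1 libraries lie at 302 to 439 FPKM, below the cKO_SOD1 libraries at 628 to 641 FPKM.

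Among the voltage-gated pore genes, Kcnc1, a subunit of the Kv3 channels that repolarise fast-spiking neurons quickly, fell in cWT_SOD1 against cWT. It had 199, 158, 132 and 195 CPM in cWT_SOD1 cords, against 341, 363, 349 and 329 CPM in cWT cords (log2 fold change -1.02 ± 0.10 (SE), adjusted p = 5.98e-08). Each cWT_SOD1 library was below every cWT library, and replicates 2 and 3 were the lowest. The Kcnc1 locus is chr7:53651838-53694074 in mm9. Of the 6 tested Kv1 genes (Kcna), which include the low-threshold channels of axons, 5 fell and Kcna5 rose. Kcna1 had 528, 434, 409 and 491 CPM in cWT_SOD1 cords, against 974, 908, 886 and 845 CPM in cWT cords (log2 fold change -0.96 ± 0.07 (SE), adjusted p = 2.82e-09). Kcna2, which forms mixed channels with Kcna1 beside the nodes of Ranvier, differed by -1.17 ± 0.11 on the log2 scale, without overlap. Kcna5 had 7.32, 9.22, 8.78 and 8.89 CPM in cWT_SOD1 cords, against 5.17, 6.57, 5.17 and 5.82 CPM in cWT cords (log2 fold change 0.59 ± 0.14 (SE), adjusted p = 9.51e-04), so that every cWT_SOD1 library was above every cWT library.

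Kcnb2, a delayed rectifier of the Kv2 family, and all 3 Kv4 genes (Kcnd1 to Kcnd3), the A-type channels of dendrites, were among those that fell. The Kv4 genes had a median log2 fold change of -0.31. Of the 5 Kv7 genes, 3 fell; these genes include the subunits of the M-current, a slow brake on repetitive firing. Kcnq3, a subunit of that current, did not pass the test (log2 fold change -0.12 ± 0.08 (SE), adjusted p = 0.194), and was singled out after its values were seen. Of the 8 ether-a-go-go genes (Kcnh1 to Kcnh8), 6 fell. Kcnh7, a member of the ERG family, had 5.72, 4.53, 3.29 and 4.51 CPM in cWT_SOD1 cords, against 8.86, 10.3, 11.8 and 10.7 CPM in cWT cords (log2 fold change -1.21 ± 0.13 (SE), adjusted p = 3.02e-07).

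The silent subunits that modify Kv2 channels held both the lowest fold change and the highest among voltage-gated genes. Kcng1 had 0.861, 1.34, 0.510 and 2.19 CPM in cWT_SOD1 cords, against 4.61, 5.595, 5.28 and 4.93 CPM in cWT cords (log2 fold change -2.07 ± 0.27 (SE), adjusted p = 2.87e-06). Kcng4 had 60.0, 57.2, 49.0 and 66.04 CPM in cWT_SOD1 cords, against 160.0, 175, 168 and 161 CPM in cWT cords (log2 fold change -1.52 ± 0.08 (SE), adjusted p = 9.32e-11). In both genes each cWT_SOD1 library was below every cWT library. In mm9 Kcng4 lies at chr8:122147754-122159580 and Kcng1 at chr2:168087198-168094831. Kcns3 had 13.3, 6.99, 6.12 and 11.9 CPM in cWT_SOD1 cords, against 31.1, 27.6, 31.6 and 32.1 CPM in cWT cords (log2 fold change -1.69 ± 0.16 (SE), adjusted p = 8.80e-08). Kcns1, of the same family as Kcns3, went the other way, with 35.4, 23.5, 23.5 and 23.5 CPM in cWT_SOD1 cords, against 7.63, 7.71, 8.11 and 8.03 CPM in cWT cords (log2 fold change 1.75 ± 0.13 (SE), adjusted p = 3.68e-09). Every cWT_SOD1 library was above every cWT library, and replicate 1 was above the other 3, which were nearly equal. Without that replicate the log2 fold change of Kcns1 was 1.58, the lowest of the 16 values with 1 library left out.

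The promoters of Kcns1, Kcng4 and Kcne1l are shown because they belong to a silent subunit that rose, to a silent subunit that fell and to the gene with the highest fold change in cWT_SOD1 against cWT. They run from 250 bases before to 50 bases after the gene's start, 5' to 3' on the gene's own strand, from RefSeq in build GRCm38.p6. Kcns1 is at chr2:164171064-164171363 on the minus strand, Kcng4 at chr8:119635631-119635930 on the minus strand, and Kcne1l at chrX:142306149-142306448 on the minus strand. Capitals mark the GC box GGGCGG, the binding motif of Sp family factors, read on either strand (CCGCCC is the same box on the other strand).
Kcns1: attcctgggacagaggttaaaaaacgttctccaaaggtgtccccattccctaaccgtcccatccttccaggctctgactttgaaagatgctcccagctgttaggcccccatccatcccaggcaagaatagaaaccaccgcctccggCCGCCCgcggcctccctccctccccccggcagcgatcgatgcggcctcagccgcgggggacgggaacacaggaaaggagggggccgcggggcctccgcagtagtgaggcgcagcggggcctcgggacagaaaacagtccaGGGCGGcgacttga
Kcng4: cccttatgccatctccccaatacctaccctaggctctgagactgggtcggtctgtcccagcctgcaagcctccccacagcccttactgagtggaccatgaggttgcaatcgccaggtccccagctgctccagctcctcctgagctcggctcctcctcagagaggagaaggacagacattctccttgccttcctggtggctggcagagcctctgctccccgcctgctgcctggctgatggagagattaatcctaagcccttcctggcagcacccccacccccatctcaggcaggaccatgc
Kcne1l: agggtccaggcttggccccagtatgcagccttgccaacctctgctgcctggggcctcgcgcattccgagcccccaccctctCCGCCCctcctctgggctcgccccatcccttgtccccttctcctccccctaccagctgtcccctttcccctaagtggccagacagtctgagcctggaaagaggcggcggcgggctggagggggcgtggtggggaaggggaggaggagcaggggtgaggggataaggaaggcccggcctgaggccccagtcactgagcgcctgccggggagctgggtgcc
The Kcns1 window holds 2 such boxes, the Kcne1l window 1, and the Kcng4 window none of the motifs searched. RefSeq windows were matched for 69 of the 93 genes. A GC box was found in 42 of the 69, and in 38.2% of 27025 genes with a window. It was found in 5 of 8 windows of genes that rose in cWT_SOD1 against cWT and in 27 of 37 windows of genes that fell. The 27025 genes were not limited to those tested in these cords, and a share over the genes tested was not counted. The other motifs, also read on both strands, were a TATA box (TATAAA) in 5 of the 69 windows and 15.7% of all genes, and the left part of the RE1 silencer element (TTCAGCACC) in 1 and in 0.433%. A cAMP response element (TGACGTCA) was in none of the 69 and in 2.03% of all genes, and a PU.1 box (GAGGAAGT) in none and in 3.69%. No motif contains another, and a match is a description of the letters in the window.

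Inward rectifiers moved in both directions. Of the G-protein-gated genes, which carry slow inhibition by transmitters, Kcnj3, Kcnj6 and Kcnj9 fell, and Kcnj5 rose on few counts, as given below. Kcnj3 had 25.1, 21.4, 18.4 and 20.8 CPM in cWT_SOD1 cords, against 44.7, 45.3, 45.3 and 42.7 CPM in cWT cords (log2 fold change -1.05 ± 0.07 (SE), adjusted p = 8.14e-10), with no overlap. The 2 pore genes of ATP-sensitive channels went opposite ways. Kcnj11, the neuronal pore, had 23.6, 18.5, 14.3 and 23.1 CPM in cWT_SOD1 cords, against 41.7, 39.7, 38.7 and 41.8 CPM in cWT cords (log2 fold change -1.03 ± 0.11 (SE), adjusted p = 2.24e-07). Kcnj8, the pore known from pericytes and smooth muscle, had 8.43, 5.03, 6.63 and 7.43 CPM in cWT_SOD1 cords, against 2.97, 3.43, 3.50 and 2.94 CPM in cWT cords (log2 fold change 1.10 ± 0.15 (SE), adjusted p = 5.81e-06). The libraries of both genes were separated completely between cWT_SOD1 and cWT. The 13 endothelial and pericyte markers summed to 318 to 385 CPM in cWT_SOD1 cords and 327 to 379 CPM in cWT cords. Of these markers 3 were higher and 3 lower, beside 33.2% and 33.1% of all genes tested.

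The strong inward rectifiers Kcnj2 and Kcnj12, which hold the resting potential, also went opposite ways. Kcnj2 had 37.5, 38.7, 40.8 and 46.7 CPM in cWT_SOD1 cords, against 17.7, 20.7, 17.1 and 16.8 CPM in cWT cords (log2 fold change 1.18 ± 0.08 (SE), adjusted p = 1.05e-09). Kcnj12 had 4.55, 4.58, 4.08 and 6.43 CPM in cWT_SOD1 cords, against 12.4, 12.6, 12.9 and 11.2 CPM in cWT cords (log2 fold change -1.33 ± 0.12 (SE), adjusted p = 2.72e-08). Neither gene's groups overlapped. Kcnj2 lies at chr11:110927478-110938139 in mm9. Kcnj16, an inward rectifier of glia and of transporting epithelia, had 121, 100.4, 101 and 108 CPM in cWT_SOD1 cords, against 103, 99.8, 107 and 120.0 CPM in cWT cords, and its groups overlapped (log2 fold change 0.00 ± 0.07 (SE), adjusted p = 0.980). Kcnj5, a G-protein-gated subunit, rose on few counts: 11, 14, 9 and 7 in cWT_SOD1 cords against 9, 3, 6 and 1 in cWT cords. It is named after its values were seen, as a member below 1 CPM, and lost its call without cWT_SOD1 replicate 2, without cWT replicate 2 or without cWT replicate 4, where the highest adjusted p was 0.0626.

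Two-pore genes, which carry the background leak that opposes depolarisation, mostly fell. Kcnk9 and Kcnk3 form acid-sensitive leak channels. Kcnk9 had 15.99, 12.2, 9.06 and 17.0 CPM in cWT_SOD1 cords, against 52.2, 54.9, 46.4 and 51.2 CPM in cWT cords (log2 fold change -1.92 ± 0.13 (SE), adjusted p = 1.69e-09). Kcnk3 differed by -1.09 ± 0.11 on the log2 scale. In both genes every cWT_SOD1 library was below every cWT library. Kcnk12, a subunit without a known current of its own in most expression systems, differed by -1.32 ± 0.15. Kcnk6, a relative of Kcnk1, was the 1 two-pore gene that rose. It had 16.5, 33.9, 29.7 and 27.3 CPM in cWT_SOD1 cords, against 4.35, 5.77, 5.33 and 6.20 CPM in cWT cords (log2 fold change 2.31 ± 0.18 (SE), adjusted p = 5.88e-09). Each cWT_SOD1 library lay above every cWT library, and replicate 1 was the lowest of the 4. The Kcnk6 locus is chr7:30006947-30017541 in mm9. Kcnk1 itself did not pass the test (log2 fold change -0.14 ± 0.10 (SE), adjusted p = 0.247), and it was the most abundant two-pore gene in cWT_SOD1 cords too, at 55.3 ± 8.43 FPKM.

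Calcium-activated and sodium-activated genes had fold changes from -0.69 to 1.42 on the log2 scale. Kcnma1, the pore of the large-conductance (BK) channel, had 44.0, 39.6, 45.0 and 42.3 CPM in cWT_SOD1 cords, against 65.1, 62.6, 63.9 and 61.3 CPM in cWT cords (log2 fold change -0.57 ± 0.06 (SE), adjusted p = 1.05e-07), without overlap. Kcnt1, a sodium-activated channel, differed by -0.47 ± 0.07 on the log2 scale. Small-conductance (SK) channels carry the medium afterhyperpolarisation. Of the 4 tested genes of SK and intermediate-conductance channels, 2 rose, 1 fell and 1 did not pass the test. Of all genes tested 33.2% were higher and 33.1% lower. Kcnn3 had 32.9, 31.0, 32.1 and 34.7 CPM in cWT_SOD1 cords, against 21.6, 26.0, 27.1 and 24.9 CPM in cWT cords (log2 fold change 0.39 ± 0.06 (SE), adjusted p = 3.14e-05), and every cWT_SOD1 library was above every cWT library. Kcnn2 did not pass the test (log2 fold change -0.24 ± 0.22 (SE), adjusted p = 0.337), and its groups overlapped. Kcnn4, the intermediate-conductance channel known from microglia and blood cells, had 18, 30, 23 and 16 counts in cWT_SOD1 cords and 10, 6, 10 and 9 counts in cWT cords (log2 fold change 1.42 ± 0.33 (SE), adjusted p = 0.00107). It too was named after its values were seen, as a gene below 1 CPM.

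Among auxiliary genes, all 3 beta subunits of Kcna channels fell, as did 3 of the 4 Kcnip genes, calcium-binding partners of the Kv4 channels. Kcnab2 had 328, 224, 199 and 329.7 CPM in cWT_SOD1 cords, against 714, 682, 681 and 733 CPM in cWT cords (log2 fold change -1.38 ± 0.12 (SE), adjusted p = 2.73e-08). Kcnab1 differed by -1.42 ± 0.11 and Kcnab3 by -1.14 ± 0.13 on the log2 scale, and none of the 3 genes overlapped between groups. The Kcnip gene that did not pass the test was Kcnip2 (log2 fold change 0.00 ± 0.15 (SE), adjusted p = 0.980), which is named after its values were seen. Kcne1l, an X-linked peptide related to MinK that modulates voltage-gated channels, had the highest fold change of all 78 genes. It had 43.9, 66.3, 97.9 and 63.1 CPM in cWT_SOD1 cords, against 12.5, 14.7, 11.5 and 13.6 CPM in cWT cords (log2 fold change 2.38 ± 0.17 (SE), adjusted p = 2.88e-09). The microglia markers, of which 17 of 17 rose in cWT_SOD1 against cWT, summed to 898% of their cWT level. The astrocyte markers summed to 229%, with 7 of 12 higher and 1 lower. Of all genes tested 33.2% were higher and 33.1% lower. The median log2 fold change was 3.60 over the microglia markers and 0.54 over the astrocyte markers, whose highest was 3.17. The part of these markers in the 9 genes that rose was not tested.

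In Atg7 cKO mice, among the genes that passed the test, Kcng4, Kcnj12 and Kcnk9 fell furthest with the transgene, and Kcnk6 and Kcns1 rose most. In cKO_SOD1 against cKO, 10 of the 78 tested genes fell and 3 rose. That is 16.7%, beside 7.28% of all genes tested, of which 2.48% fell and 4.80% rose. The median log2 fold change was -0.11 over the 78 genes and -0.0001 over all genes tested. The libraries of cKO_SOD1 and cKO did not overlap for 28 of the 78 genes and for 20.9% of all genes tested. All 13 genes had also changed in cWT_SOD1 against cWT, with the same sign in each, and they are 20.6% of the 63 that changed there. Of all 1123 genes called in cKO_SOD1 against cKO, 1081 or 96.3% were called with the same sign in cWT_SOD1 against cWT, which is 10.6% of the 10221 called there. The count of 13 was 7 without cKO_SOD1 replicate 3 or without cKO replicate 2, and 8 without cKO_SOD1 replicate 2 or without cKO replicate 3. It was up to 18 with another library left out, 24 by limma-voom and 27 with only the 8 libraries compared. The 1123 calls over all genes were 685 to 1643 with 1 library left out. They were 2264 by limma-voom and 2480 with only the 8 libraries compared. Summed FPKM of the 93 genes was 1305 ± 9.05 in cKO_SOD1 cords and 1441 ± 22.9 in cKO cords, a level of 90.6%. Pan-neuronal markers stood at 72.7% of their cKO sum, with 7 of 15 lower, motor neuron markers at 65.5%, with 11 of 16 lower, and spinal interneuron markers at 92.6%, with none of 14 changed.

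The gene that fell furthest in cKO_SOD1 against cKO was Kcng4, the silent subunit whose promoter is printed above. It had 78.3, 80.5, 72.3 and 90.5 CPM in cKO_SOD1 cords, against 153, 135, 133 and 147 CPM in cKO cords (log2 fold change -0.82 ± 0.08 (SE), adjusted p = 7.00e-06), without overlap. Kcnj12 had 8.31, 8.54, 7.13 and 7.86 CPM in cKO_SOD1 cords, against 13.1, 11.7, 12.6 and 10.97 CPM in cKO cords (log2 fold change -0.60 ± 0.11 (SE), adjusted p = 0.00187), also without overlap. Kcnk9 had 32.9, 31.8, 30.6 and 36.3 CPM in cKO_SOD1 cords, against 43.1, 51.3, 50.3 and 44.8 CPM in cKO cords (log2 fold change -0.53 ± 0.12 (SE), adjusted p = 0.0120), and lost its call without cKO_SOD1 replicate 3 or without cKO replicate 2. Smaller falls, by log2 fold change with its SE, were those of Kcnip4 (-0.38 ± 0.08), Kcnq5 (-0.30 ± 0.07) and Kcnip1 (-0.23 ± 0.05), which kept their calls with any 1 library left out. Kcnab1 (-0.41 ± 0.11), Kcnt2 (-0.30 ± 0.08) and Kcnh1 (-0.23 ± 0.06) did not keep theirs. Kcnab1 lost it without any 1 of the 8 libraries compared. Kcnt2 lost it without replicate 2, 3 or 4 of either group. Kcnh1 lost it without cKO_SOD1 replicate 2, 3 or 4 or without cKO replicate 1, 2 or 3. Kcnip1 overlaps Kcnmb1 and Kcnt2 overlaps 4930590L20Rik in mm9, so that reads of the 2 genes at either place may have been exchanged if counting did not use strand, which is not given in the sources used here.

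The genes that rose were Kcns1, Kcnk6 and Kcnn3. Kcns1 had 11.7, 12.4, 14.6 and 15.4 CPM in cKO_SOD1 cords, against 8.17, 7.22, 7.21 and 7.61 CPM in cKO cords (log2 fold change 0.84 ± 0.13 (SE), adjusted p = 5.58e-04). Kcnk6 had 8.90, 9.95, 7.64 and 9.996 CPM in cKO_SOD1 cords, against 4.78, 4.19, 5.32 and 4.88 CPM in cKO cords (log2 fold change 0.93 ± 0.19 (SE), adjusted p = 0.00419). In both, every cKO_SOD1 library was above every cKO library. Kcnn3 differed by 0.22 ± 0.06 on the log2 scale without overlap, and lost its call without any 1 of the 4 cKO_SOD1 libraries and without cKO replicate 2, 3 or 4. Kcne1l and Kcnj2 did not pass the test here (0.49 ± 0.17, adjusted p = 0.106 and 0.26 ± 0.08, adjusted p = 0.0573 on the log2 scale). Microglia markers summed to 197% of their cKO level, with 15 of 17 higher, beside 4.80% of all genes tested. The part of these markers in these values was not tested.

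**Figure D3:**
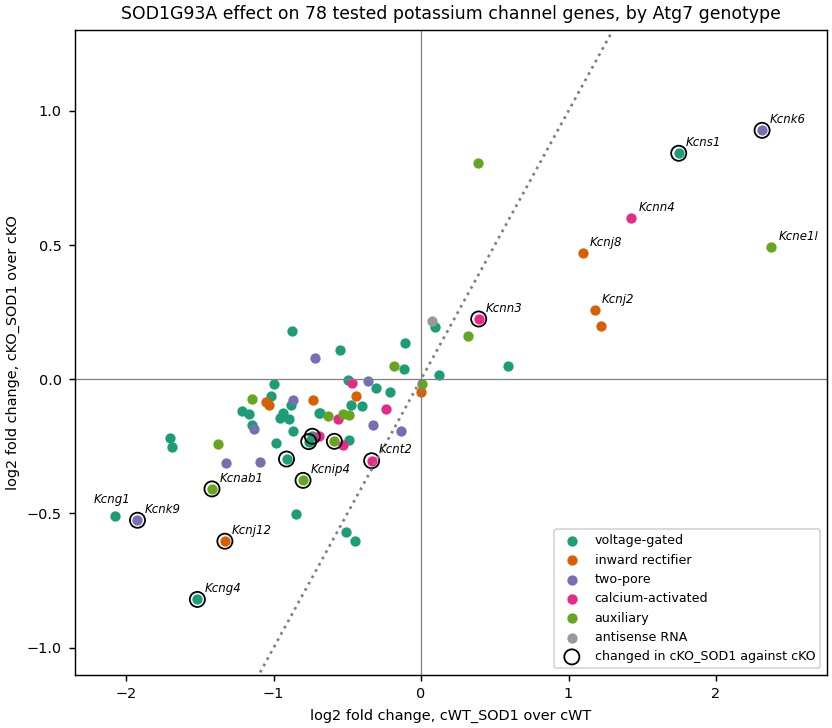
Each point is 1 of the 78 tested potassium channel genes, placed by its log2 fold change for cWT_SOD1 over cWT (horizontal) and for cKO_SOD1 over cKO (vertical), coloured by subfamily. Circles mark the 13 genes changed in cKO_SOD1 against cKO, and the dotted line marks equal fold changes. Among the circled points Kcng4, Kcnj12 and Kcnk9 lie lowest on the vertical axis, and Kcnk6 and Kcns1 highest.

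Without the transgene, no potassium channel gene passed the test in cKO against cWT. The count was 0 of 78 by edgeR's quasi-likelihood test, DESeq2 and limma-voom, with 3 genes at an unadjusted p under 0.05, and the smallest adjusted p was 0.9995. By the same edgeR test 543 of all 15426 genes tested had an unadjusted p under 0.05. Of all genes tested 0.0259% were called, 0.00648% as higher and 0.0194% as lower. The 3 genes are named for that small count: Kcng4 (log2 fold change -0.23 ± 0.08), Kcnj5 (1.07 ± 0.44) and Kcnt2 (0.20 ± 0.08). Kcng4 had 153, 135, 133 and 147 CPM in cKO cords, against 160.0, 175, 168 and 161 CPM in cWT cords, and the groups did not overlap. For 7 of the 78 genes the libraries of cKO and cWT did not overlap, beside 3.48% of all genes tested. The median log2 fold change was -0.01. Summed FPKM of the 93 genes was 1441 ± 22.9 in cKO cords and 1487 ± 26.6 in cWT cords.

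With the transgene, cKO_SOD1 cords held more RNA of most potassium channel genes than cWT_SOD1 cords. Of the 78 genes 48 were higher and 7 lower, 70.5% in all, beside 58.2% of all genes tested, of which 29.1% were higher and 29.1% lower. The median log2 fold change was 0.45 over the 78 genes and -0.01 over all genes tested, and the groups did not overlap for 51 of the 78, beside 49.1% of all genes tested. By subfamily, 26 of 37 voltage-gated genes were higher and 2 lower, and 7 of 10 two-pore genes were higher and 1 lower. Of 9 inward rectifiers 5 were higher and 2 lower, of 8 calcium-activated and sodium-activated genes 4 and 1, and of 13 auxiliary genes 6 and 1. This comparison shares the cWT_SOD1 libraries with cWT_SOD1 against cWT. The pan-neuronal markers were at 172% of their cWT_SOD1 sum, with 14 of 15 higher and 1 lower. The motor neuron markers were at 113%, with 6 of 16 higher and 4 lower (median log2 fold change 0.02). The microglia markers were at 23.8%, with 17 of 17 lower. The part of these markers in these values was not tested.

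Kcns3 had 25.7, 23.1, 24.6 and 25.4 CPM in cKO_SOD1 cords, against 13.3, 6.99, 6.12 and 11.9 CPM in cWT_SOD1 cords (log2 fold change 1.38 ± 0.16 (SE), adjusted p = 1.87e-06). Kcnk9 had 32.9, 31.8, 30.6 and 36.3 CPM in cKO_SOD1 cords, against 15.99, 12.2, 9.06 and 17.0 CPM in cWT_SOD1 cords (log2 fold change 1.29 ± 0.13 (SE), adjusted p = 4.51e-07). In both genes every cKO_SOD1 library was above every cWT_SOD1 library. Other genes among those with the highest fold changes were Kcnh7 (1.26 ± 0.13), Kcng1 (1.21 ± 0.28), Kcnab3 (1.08 ± 0.13), Kcnh6 (1.06 ± 0.17), Kcnab2 (1.05 ± 0.12), Kcnk12 (1.02 ± 0.15) and Kcna2 (1.01 ± 0.11), by log2 fold change with its SE. Kcng4 was higher by less (0.47 ± 0.08), at 22.2 ± 1.92 FPKM in cKO_SOD1 cords, 16.2 ± 2.04 FPKM in cWT_SOD1 cords, 38.3 ± 2.37 FPKM in cKO cords and 44.7 ± 2.31 FPKM in cWT cords.

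The 7 genes that were lower in cKO_SOD1 than in cWT_SOD1 were Kcne1l, Kcnk6, Kcnn4, Kcnj2, Kcns1, Kcnj8 and Kcna5. Kcne1l had 18.8, 19.95, 18.8 and 18.8 CPM in cKO_SOD1 cords, against 43.9, 66.3, 97.9 and 63.1 CPM in cWT_SOD1 cords (log2 fold change -1.83 ± 0.16 (SE), adjusted p = 1.16e-07). Kcnk6 had 8.90, 9.95, 7.64 and 9.996 CPM in cKO_SOD1 cords, against 16.5, 33.9, 29.7 and 27.3 CPM in cWT_SOD1 cords (log2 fold change -1.56 ± 0.17 (SE), adjusted p = 6.42e-07). Kcnj2 had 22.01, 20.2, 21.4 and 20.04 CPM in cKO_SOD1 cords, against 37.5, 38.7, 40.8 and 46.7 CPM in cWT_SOD1 cords (log2 fold change -0.97 ± 0.08 (SE), adjusted p = 3.42e-08). In all 3 the groups were fully apart. Kcns1 differed by -0.96 ± 0.12, Kcnj8 by -0.62 ± 0.15 and Kcna5 by -0.44 ± 0.13 on the log2 scale. Kcnn4, on few counts and named after its values were seen, differed by -1.15 ± 0.32.

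**Figure D4:**
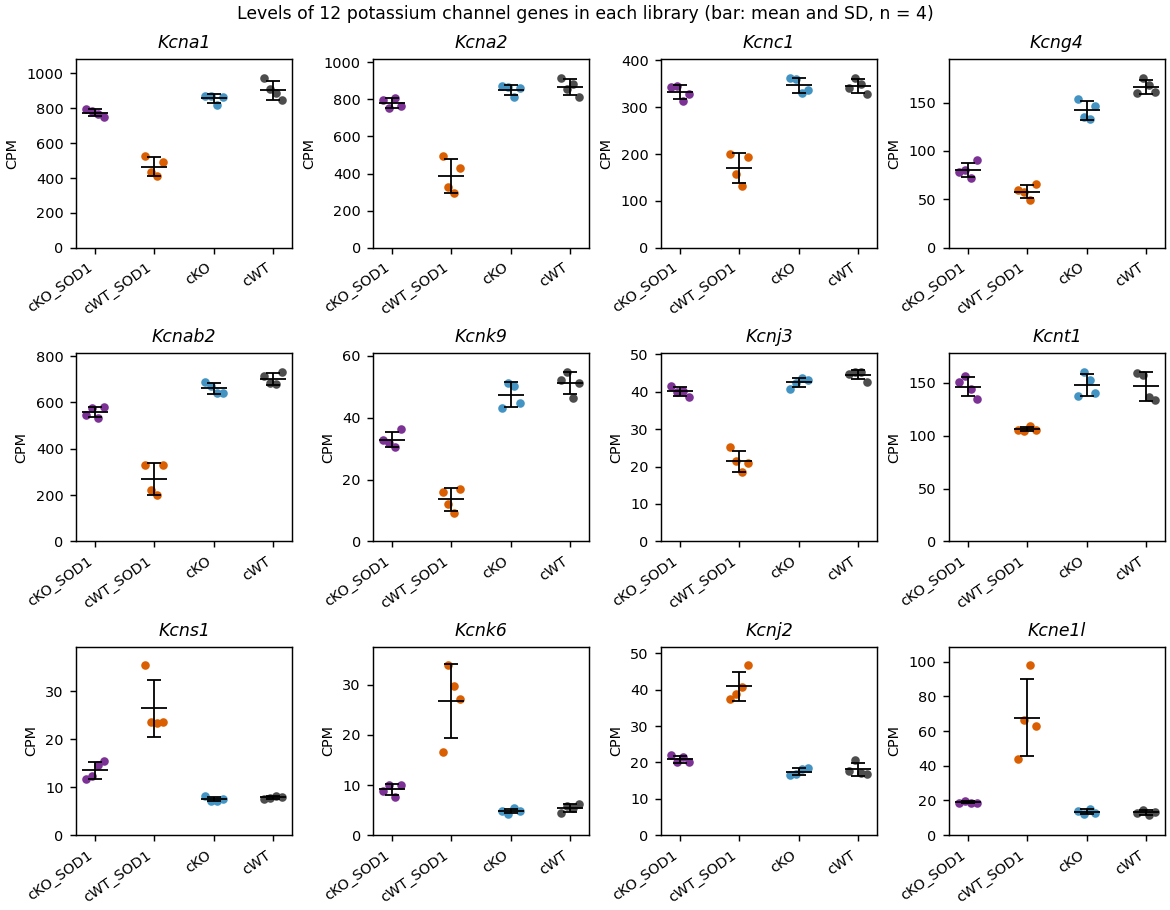
Each panel gives the CPM of 1 gene in each library (points), with the mean and SD of each group of 4 (lines), on a linear axis that starts at 0. Kcna1, Kcna2, Kcnc1, Kcng4, Kcnab2, Kcnk9, Kcnj3 and Kcnt1 are lowest in the 4 cWT_SOD1 libraries, and Kcns1, Kcnk6, Kcnj2 and Kcne1l are highest there. The cKO_SOD1 libraries of Kcng4 lie nearer to those of cWT_SOD1 than to those of cKO.

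The transgene effect itself differed between Atg7 genotypes for 49 of the 78 genes, 62.8%, beside 45.0% of all genes tested. The value tested is the log2 fold change of cKO_SOD1 over cKO minus that of cWT_SOD1 over cWT, the interaction of the 2 factors. It was above 0 for 43 genes and below 0 for 6, beside 23.2% and 21.8% of all genes tested. Its median was 0.44 over the 78 genes and -0.005 over all genes tested. Kcng1 had the highest value (1.56 ± 0.37, adjusted p = 0.00217), and Kcns3 was among those with the next highest (1.43 ± 0.22, adjusted p = 7.47e-05). Kcne1l had the lowest (-1.88 ± 0.24, adjusted p = 1.73e-05), then Kcnk6 (-1.39 ± 0.26, adjusted p = 3.54e-04), Kcnj2 (-0.92 ± 0.11, adjusted p = 9.99e-06) and Kcns1 (-0.91 ± 0.18, adjusted p = 7.24e-04). All 3 beta subunits of Kcna channels had values above 0 that passed the test. Among the 13 genes changed in both transgene comparisons, Kcnn3 (-0.17 ± 0.09, adjusted p = 0.140) and Kcnt2 (0.03 ± 0.12, adjusted p = 0.852) did not pass it. The mean level in cKO_SOD1 lay between those of cWT_SOD1 and cKO for 66 of the 78 genes, 84.6%, beside 69.8% of all genes tested.

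Genes that work beside potassium channels were described from lists chosen for their function. Their counts stand beside 66.3% of all genes tested called in cWT_SOD1 against cWT (33.1% lower and 33.2% higher), 7.28% in cKO_SOD1 against cKO and 58.2% in cKO_SOD1 against cWT_SOD1. One list held 13 genes linked to the juxtaparanode of myelinated axons and to the clustering of Kcna channels. Of these 13 genes, 11 fell and 2 rose in cWT_SOD1 against cWT (median log2 fold change -0.60). Cntnap2, the adhesion protein that anchors Kcna1 and Kcna2 there, had 105, 77.1, 76.0 and 96.3 CPM in cWT_SOD1 cords, against 177, 175, 184 and 181 CPM in cWT cords (log2 fold change -1.02 ± 0.08 (SE), adjusted p = 5.01e-09). Epb4.1l3, its cytoskeletal linker, differed by -1.18 ± 0.10, and Lgi4, a secreted protein of glia, by 1.002 ± 0.09. In cKO_SOD1 against cKO, 1 of the 13 rose, Lgi4 (0.53 ± 0.09), and none fell. In cKO_SOD1 against cWT_SOD1, 10 were higher and 2 lower, Cntnap2 among the higher (0.89 ± 0.08).

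Of 5 genes that bind Kv4 or Kv2 channels, 3 fell and 2 rose in cWT_SOD1 against cWT, none changed in cKO_SOD1 against cKO, and 3 were higher and 1 lower in cKO_SOD1 against cWT_SOD1. Amigo1, the adhesion protein of Kv2 clusters, was among the higher (0.62 ± 0.06). Of the 2 sulfonylurea receptors of ATP-sensitive channels, Abcc8, the partner of Kcnj11, had 34.0, 36.9, 30.5 and 32.0 CPM in cKO_SOD1 cords, against 19.6, 14.6, 13.7 and 17.8 CPM in cWT_SOD1 cords (log2 fold change 1.02 ± 0.09 (SE), adjusted p = 1.24e-07). In cWT_SOD1 against cWT it differed by -1.03 ± 0.09, where Kcnj11 differed by -1.03 ± 0.11. The other receptor differed by -0.21 on the log2 scale there and did not pass the test. In cKO_SOD1 against cWT_SOD1 it was higher (0.35). Of 5 genes of the HCN channels, which carry the hyperpolarisation-activated current, counting their partner Pex5l, 4 fell in cWT_SOD1 against cWT, where 66.3% of all genes tested were called. Of 7 genes for BK gamma subunits and for calmodulin, the protein that opens SK channels, 5 fell and 2 rose in that comparison. Calm3 differed by -0.97 ± 0.07 on the log2 scale. In cKO_SOD1 against cKO Calm2 differed by -0.26 ± 0.08.

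Genes that restore potassium and chloride gradients were described in the same way. Of 10 tested genes of the sodium potassium ATPase, 4 fell and 4 rose in cWT_SOD1 against cWT, beside 33.1% lower and 33.2% higher of all genes tested. Fxyd1, a regulator of the pump, had 94.9, 136, 146 and 122 CPM in cWT_SOD1 cords, against 25.8, 24.6, 30.3 and 29.6 CPM in cWT cords (log2 fold change 2.18 ± 0.12 (SE), adjusted p = 8.60e-11), and Atp1b2, a glial beta subunit, differed by 0.78 ± 0.08. In cKO_SOD1 against cKO Fxyd7, a neuronal regulator, differed by -0.67 ± 0.07. Among cation chloride cotransporters, Slc12a5, the neuronal potassium chloride exporter, had 764, 784, 711 and 763 CPM in cKO_SOD1 cords, against 451, 361, 313 and 449.9 CPM in cWT_SOD1 cords (log2 fold change 0.94 ± 0.09 (SE), adjusted p = 1.74e-07). Slc12a4 and Slc12a7, widely expressed exporters, went the other way (-0.72 ± 0.08 and -0.61 ± 0.10 on the log2 scale in cKO_SOD1 against cWT_SOD1).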

How the data were processed

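RNA of 16 lumbar cords was extracted, enriched for poly-A RNA and sequenced from TruSeq libraries, per the labels' protocols. The submitters' processing notes list Cufflinks 2.0.2, TopHat2 2.0.4 and bcl2fastq 1.8.4, and the build mm9. Strand use and the read counter are not given in the sources consulted, so that reads of overlapping genes such as Kcnq1 and Kcnq1ot1, Kcnip1 and Kcnmb1, or Kcnrg and Dleu2 may have been exchanged. Kcnab1, Kcnd3, Kcnip4, Kcnk3, Kcnmb4, Kcnn2 and Kcnt2 also overlap another gene in mm9. The authors deposited raw counts per gene symbol, with 14989026 to 20892530 per library, and FPKM values, which correct for transcript length, in tables whose 379184 compared values were identical.

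Symbols were matched to the naming rule, and all 16 libraries were fitted in 1 edgeR 4.0.16 model (R 4.3.3) with a coefficient per group, TMM normalisation and the default filter on low counts, which left 15426 genes. The quasi-likelihood F-test was adjusted by Benjamini-Hochberg over those genes, and genes with an adjusted p under 0.05 are called changed. The SE of a log2 fold change is its absolute value over the square root of F. CPM uses TMM library sizes, and FPKM is as deposited. Alternatives were RLE and upper-quartile factors, no filter, DESeq2 1.42.0, limma 3.58.1 on voom weights per group, limma on log2(FPKM + 0.1) or log2(FPKM + 1), only the libraries compared, sex as a covariate, a replicate block, and each library left out. The fit was also run on counts simulated from its own means and estimates of spread, with the same spread in every group. Such counts cannot show a fault in those estimates. No pair of libraries within a group was as close as sampling noise, so that none was counted as a duplicate.

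The genes named are, per comparison, up to 10 called genes in each direction with the most extreme fold changes and a mean of at least 1 CPM, the 3 genes of each subfamily with the highest mean FPKM, and up to 4 called partner genes in each direction; other names are said to be chosen after their values were seen or stand in counts of a family. A few genes that the rule takes are not reported here. The genes and lists were chosen with earlier results of these data known. Positions in mm9 come from the deposited FPKM tables, and promoter sequences from RefSeq in GRCm38.p6.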

Additional observations from a re-analysis of the deposited data

Results flagged for a closer look

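In 5 of the 136 groups of 4 libraries examined (34 named genes in 4 groups), 1 library stood apart from the other 3 by Dixon's criterion, which chance meets in about 1 group in 20. Kcns1 was at 35.4 CPM in cWT_SOD1 replicate 1, beside 23.5 CPM in each of the other cWT_SOD1 libraries. Kcnn2 was at 32.1 CPM in cWT_SOD1 replicate 4, beside 16.7 to 18.7 CPM. Kcnip1 was at 42.4 CPM in cWT_SOD1 replicate 1, beside 40.5 to 40.7 CPM. Kcne1l was at 19.95 CPM in cKO_SOD1 replicate 2, beside 18.8 CPM in each of the others. Kcnh7 was at 13.2 CPM in cKO replicate 4, beside 11.04 to 11.4 CPM.

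The transgene effect differed between the Atg7 genotypes for 29 of these 34 genes, by edgeR's test of the interaction. The 34 were named partly for that test and for comparisons that share its libraries, so their choice raises this count. It was 49 over the 78 tested potassium channel genes, and 45.0% of all genes tested passed. The log2 fold change with Atg7 cKO minus that with Atg7 cWT was above 0 for Kcng1 (1.56), Kcns3 (1.43), Kcnk9 (1.40), Kcnab2 (1.14), Kcnh7 (1.09), Kcnab3 (1.07), Kcna2 (1.04), Kcnab1 (1.01), Kcnk12 (1.01), Kcnh6 (0.98), Kcnj3 (0.97), Kcnc1 (0.95), Kcnj11 (0.93), Kcna1 (0.81), Kcnk3 (0.78), Kcnj12 (0.73), Kcng4 (0.70), Kcnq5 (0.62), Kcnh1 (0.53), Kcnt1 (0.46), Kcnip4 (0.42), Kcnma1 (0.42) and Kcnip1 (0.36). It was below 0 for Kcne1l (-1.88), Kcnk6 (-1.39), Kcnj2 (-0.92), Kcns1 (-0.91), Kcnj8 (-0.63) and Kcna5 (-0.54). The call of Kcnj8 was lost without cKO_SOD1 replicate 4, cKO replicate 1 or 4, or cWT replicate 1 or 4, with an adjusted p of up to 0.0583. That of Kcna5 was lost without cKO_SOD1 replicate 3 or 4, cWT_SOD1 replicate 2, cKO replicate 1, 2 or 3, or cWT replicate 1 or 3, with an adjusted p of up to 0.0659.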

How the results depend on the processing

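The count of potassium channel genes changed in cKO_SOD1 against cKO depended most on the processing. It was 13, but 24 by limma-voom with weights per group and 27 with only the 8 libraries compared in the fit, and 7 to 18 with 1 library left out. The calls over all genes moved too. They were 1123 of 15426 genes, but 2264 of 15426 by limma-voom and 2480 of 15058 with only the 8 libraries compared. With 1 library left out they were 685 to 1643. The other counts stayed within 1.5 times of the reported ones under every alternative run: 59 to 64 for cWT_SOD1 against cWT, 52 to 59 for cKO_SOD1 against cWT_SOD1, 46 to 51 for the interaction and 0 for cKO against cWT. No named gene's called direction was reversed. The calls that held under all alternatives were 57 of 63 in cWT_SOD1 against cWT, 7 of 13 in cKO_SOD1 against cKO, 51 of 55 in cKO_SOD1 against cWT_SOD1 and 45 of 49 for the interaction. Those that did not hold in cWT_SOD1 against cWT were Kcnh3, Kcnj5, Kcnk5, Kcnk13, Kcnmb2 and Kcnu1, and the cause was not tested. With the replicate number as a block the counts were 62 for cWT_SOD1 against cWT, 13 for cKO_SOD1 against cKO, 0 for cKO against cWT, 55 for cKO_SOD1 against cWT_SOD1 and 50 for the interaction. The numbers did not pair the samples: 11 of 24 same-numbered pairs correlated above 0.1, from -0.25 to 0.31, and 8 correlated best with their own number. Depth limits genes with few reads such as Kcnj5 and Kcnn4. The 15 genes under the filter on low counts were tested in the fit without it. There 1 of them passed in cWT_SOD1 against cWT, beside 10389 of all 19972 genes in that fit. It was Kcne2, on 7, 3, 4 and 6 counts in cWT_SOD1 cords and 2, 1, 0 and 0 counts in cWT cords. None of the 15 passed in the other comparisons.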

Other observations

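The 4 cWT_SOD1 libraries were not alike in these genes. Of the 54 genes that fell in cWT_SOD1 against cWT, the lowest cWT_SOD1 library was replicate 3 for 29 and replicate 2 for 15, and the highest was replicate 1 for 30 and replicate 4 for 18. For 32 of the 54, replicates 2 and 3 were the 2 lowest. The same counts were not made over all genes tested. The same libraries had pan-neuronal marker sums of 7234, 4934, 4865 and 6685 CPM in replicates 1 to 4, and microglia marker sums of 3187, 5608, 5472 and 4413 CPM. The part of those markers in the order of the libraries was not tested.

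Potassium channel genes that lie next to each other in the genome did not always move together in cWT_SOD1 against cWT. On chromosome 6 in mm9, Kcna5, Kcna1 and Kcna6 follow each other with gaps of 100907 and 62527 bases, and their log2 fold changes were 0.59 ± 0.14, -0.96 ± 0.07 and -0.49 ± 0.11 (SE), each past the test. On chromosome 11, Kcnj16 and Kcnj2 lie 38196 bases apart. Kcnj16 did not pass the test (0.00 ± 0.07, adjusted p = 0.980), and Kcnj2 rose (1.18 ± 0.08, adjusted p = 1.05e-09). On chromosome 3, Kcna3 and Kcna2 lie 63437 bases apart, and both fell (-0.55 ± 0.12 and -1.17 ± 0.11). These neighbours were picked after their values were seen, and their differences were not tested.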
